A study of Mus musculus with 36 samples.

Results

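The DNA methylation writers and erasers of the mouse were followed from fibroblast to pluripotent cell, in cells with and without a Zfp266 guide. Members were chosen by gene name, with earlier results of these data known. They were the methyltransferases Dnmt1, Dnmt3a and Dnmt3b, their cofactors Dnmt3l and Uhrf1, the dioxygenases Tet1, Tet2 and Tet3, and the glycosylase Tdg. All 9 were found among the 21442 genes of the count table, and all 9 had a test result in each comparison. RNA-seq had been performed at 6 stages in 2 genotypes with 3 libraries each, 36 libraries in all, and a level below is a normalised read count, that is the reads of a gene divided by the size factor of the library.

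The starting cells were Cas9 TNG MKOS mouse embryonic fibroblasts (MEFs, strain 129 per the labels), derived at E12.5 from chimeric embryos and carrying Cas9, a Nanog-GFP reporter and a doxycycline-inducible Oct4, Sox2, Klf4 and c-Myc cassette with mOrange. For the wild type (WT) a non-targeting guide RNA was delivered by lentivirus, and for the knockout (KO) a Zfp266 guide RNA, so both genotypes carried Cas9 and the cassette. MEF libraries were made 96 h after transduction from unsorted cells, which may include host cells of the chimera without Cas9. For D3, D5 and D7 (3, 5 and 7 days of reprogramming) the transduced MEFs were mixed with wild-type 129 MEFs, given 300 ng/ml doxycycline and 10 µg/ml vitamin C from 24 h after transduction, and sorted for mOrange. The iPS libraries were 3 single-cell clones per genotype (129), lifted at day 15, grown without doxycycline under 1 µg/ml puromycin and genotyped. The ESC libraries were 3 samples of 1 parental embryonic stem cell line and 3 KO clones derived from it, with no strain in the labels, so a KO against WT difference there also compares clones with their parent. Medium and vitamin C differed between stages and cannot be told apart from the stage.

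In this system, DNMT1 copies CpG methylation onto the new strand at replication, and UHRF1 brings it there by binding hemimethylated CpG. DNMT3A and DNMT3B methylate DNA de novo, and DNMT3L, which has no catalytic activity of its own, stimulates them. TET enzymes oxidise 5-methylcytosine, TDG excises the more oxidised forms, and base excision repair then restores the unmethylated base. Mouse pluripotent cells are known for abundant Tet1, Dnmt3b and Dnmt3l transcripts, whereas Tet3 is more abundant in many differentiated cells. RNA was measured here, not methylation.

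Sequences before the start sites are shown for Dnmt3b and Dnmt3l, which rose most among the writers and their cofactors, and for Uhrf1, which carries the word described below, from windows that hold no exon base, with every CpG, the substrate of these enzymes, in capitals (RefSeq start sites, GRCm38.p6, 5′ to 3′ on the gene's strand). Over 32851 windows of 250 bases before mouse start sites the median was 6 CpG. The Dnmt3b window at chr2:153649199-153649448 (+ strand) holds 21 CpG, more than 83.7% of windows. The Uhrf1 window at chr17:56304063-56304312 (+) holds 30, more than 94.1% of windows. The Dnmt3l window at chr10:78049592-78049841 (+), by contrast, holds 4, more than 37.8% of windows, and a second Dnmt3l window, before the start at 78055335 and not printed, holds 3.
Dnmt3b: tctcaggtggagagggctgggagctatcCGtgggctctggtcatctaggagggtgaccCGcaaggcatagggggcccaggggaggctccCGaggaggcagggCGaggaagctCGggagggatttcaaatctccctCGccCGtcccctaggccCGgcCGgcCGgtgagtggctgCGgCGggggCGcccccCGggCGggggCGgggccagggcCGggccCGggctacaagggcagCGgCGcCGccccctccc
Uhrf1: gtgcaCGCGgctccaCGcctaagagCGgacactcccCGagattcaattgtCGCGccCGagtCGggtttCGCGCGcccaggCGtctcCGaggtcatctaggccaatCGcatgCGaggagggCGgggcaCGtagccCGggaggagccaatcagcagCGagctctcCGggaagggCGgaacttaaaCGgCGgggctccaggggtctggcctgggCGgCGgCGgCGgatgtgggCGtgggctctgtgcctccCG
Dnmt3l: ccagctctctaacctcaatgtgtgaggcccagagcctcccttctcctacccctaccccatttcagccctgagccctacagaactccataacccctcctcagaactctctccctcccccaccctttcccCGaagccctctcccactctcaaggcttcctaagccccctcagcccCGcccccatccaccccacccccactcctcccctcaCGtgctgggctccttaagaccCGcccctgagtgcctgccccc
The Tet2 window at chr3:133544391-133544640 holds 51 CpG, more than 99.9% of windows, and is not printed. Dnmt1 and Uhrf1, the maintenance pair, share an 8-letter word of the E2F type. TTTCCCGC, TTTGGCGC, TTTCGCGC and TTTGCCGC were searched on both strands, with no overlap between words required or removed. Any of these words lies in 1.86% of all windows and in 2 of the 16 windows of members, both times as TTTCGCGC, which alone lies in 0.256% of windows. In Dnmt1 the word is on the reverse strand, 212 bases before the start (chr9:20952824-20952853, −), and in Uhrf1 it is 178 bases before the start (chr17:56304117-56304146, +). The Dnmt1 window, unlike that of Uhrf1, holds 166 exon bases, and the other windows of both genes lack the word. The word is in capitals.
Dnmt1: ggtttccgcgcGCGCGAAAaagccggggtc
Uhrf1: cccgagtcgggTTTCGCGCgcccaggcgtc
A match describes the letters of the window and does not show that a factor binds there.

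Depth ranged from 19224103 reads in genes (WT MEF replicate 1) to 39610939 (KO D5 replicate 3), so 3 reads in 1 library correspond to 2.31 to 5.22 normalised counts. Such floors cover counting error only. Zfp266 RNA was present in all libraries, at 1266 to 3096 in WT and 1501 to 3293 in KO samples. It was higher in KO at D3 (log2 fold change 0.32, FDR 0.00883) and lower in KO iPS (−0.39, FDR 9.95e-06). A small deletion made by Cas9 need not change the amount of RNA, so this level does not check the labels. Markers went with the labelled cell types. The sum over 9 fibroblast genes was 421394 to 437152 in WT MEFs and 122 to 243 in all iPS and ESC libraries. The sum over 10 pluripotency genes outside the cassette was 19.7 to 31.6 in MEFs and 118298 to 153318 in iPS and ESC libraries. Among MEF libraries, KO replicate 3 stood apart, with a macrophage and endothelium marker sum of 649 against 329 and 333 in the other KO MEFs and 253 to 278 in WT MEFs. This sum was 479 to 758 in WT D5 and 516 to 835 in WT D7 libraries, so 649 was not high in the whole series. Among iPS clones, KO replicate 1 stood apart, with an extraembryonic marker sum of 369 against 18.2 and 37.4 in the other KO clones. In bulk RNA, fewer cells of a type and less RNA per cell cannot be told apart, which holds for each level below.

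Along the WT course the members fell into those with their highest mean in pluripotent cells and those that peaked earlier. Dnmt3b, Dnmt3l, Tet1, Uhrf1, Tet2 and Dnmt1 were highest in iPS or ESC. Their ESC means lay above the MEF means by 2.22-fold (Dnmt1) to 1268-fold (Dnmt3l). Tdg peaked at D3 but also ended 2.22-fold higher in ESC than in MEF. Dnmt3a was highest at D3 and D5, and Tet3 collapsed between D7 and iPS. Between WT MEF and WT ESC all 9 members passed the test, 7 higher and 2 lower, where 40.0% of all tested genes were higher and 39.4% lower. The changes were read on a scale whose median over all genes was 0.05 (log2). With TMM scaling this median was 0.16, and the differences of the members kept their direction.

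Among the de novo enzymes, Dnmt3b had 73.0, 56.0 and 83.8 normalised counts in the 3 WT MEF libraries, 359, 264 and 289.8 at D3, 364, 451 and 427 at D7, and 5331, 5819 and 8265 in iPS clones. It thus rose in 2 steps, by 2.09 (SE 0.27, FDR 2.57e-14) from MEF to D3 and by 3.97 (SE 0.24, FDR 1.37e-59) from D7 to iPS on the log2 scale, with overlap between D3 and D5 and between D5 and D7. Dnmt3a also rose from MEF to D3 but came down later, at 3511, 3726 and 3465 in WT MEFs, 6147, 6423 and 6717 at D3, 4084, 4103 and 4922 at D7, and 2569.6, 2672 and 2801 in WT ESCs. Its rise from MEF to D3 was 0.85 (SE 0.17, FDR 1.76e-06), and its fall from D5 to D7 was −0.47 (FDR 0.0281). That fall missed the threshold without D5 WT replicate 1 (FDR 0.0577) or 3 (0.155) and without D7 WT replicate 1 (0.105) or 2 (0.112). The lower ESC level (−0.41 against MEF, FDR 0.0223) missed it with edgeR (0.0934), with TMM size factors (0.0946), and without 1 of the libraries MEF WT replicate 2 (0.0653) and ESC WT replicates 1 (0.0677) and 2 (0.0507).

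Dnmt3l, the stimulator, was close to silent until D5. WT MEFs had 1, 8 and 6 reads, the WT D3 libraries none, and the WT D5 libraries 2, 1 and 2 reads. Against a floor of 3 reads over the D3 group, the WT D3 level was at least 7.02-fold lower than the MEF level (FDR 0.000117), and at least 4.22-fold lower without MEF WT replicate 2, which held 8 of the 15 MEF reads. At D7 the WT libraries reached 39.6, 126 and 22.6 normalised counts and in iPS clones 9289.7, 12762 and 9909. The steps were 5.22 (SE 0.79, FDR 2.79e-09) from D5 to D7 and 7.41 (SE 0.46, FDR 4.91e-57) from D7 to iPS. WT D7 replicate 2 held most of the D7 reads, and without it the steps were 4.2 and 8.42. Exons of Dnmt3l overlap those of Aire on the opposite strand over 2.24% of their length, and the strand setting of the counting is not given in the sources used here.

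The maintenance pair moved later. Dnmt1 stood at 5713, 5599.5 and 5442 in WT MEFs, 6358, 5051 and 5084 at D5, 9183, 7607 and 7957 at D7, and 15669, 13139.9 and 13172 in iPS clones. Uhrf1 stood at 2784, 2988 and 2846 in WT MEFs, 2902, 2312 and 2048 at D5, 4830.1, 4417 and 4323 at D7, and 14703, 13199 and 14585 in iPS clones. For both genes MEF, D3 and D5 libraries overlapped and D7 lay above them. From D5 to D7 Dnmt1 rose by 0.59 (SE 0.14, FDR 0.000444) and Uhrf1 by 0.90 (SE 0.12, FDR 4.09e-11). From D7 to iPS they rose by 0.76 (FDR 1.68e-07) and 1.65 (FDR 2.17e-39). Per kilobase of all annotated exons merged, WT Uhrf1 was at 675 ± 24.5 (SD, n = 3) in MEFs against 757 ± 18.4 for Dnmt1, and at 3325 ± 196 against 1897 ± 197 in iPS clones.

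The 3 TET genes changed places. Tet1 was at 349.6, 398 and 348 in WT MEFs, dropped to 149, 170.0 and 215 at D3 and 109.7, 90.8 and 168 at D5, and then rose to 909.8, 1445 and 895 at D7 and 19345, 20228 and 17494 in iPS clones. Tet1 is the gene with the widest range of levels after Dnmt3l, since its highest WT mean was 155 times its lowest. The fall from MEF to D3 was −1.04 (SE 0.19, FDR 2.25e-07), and the rises were 3.14 (SE 0.19, FDR 8.15e-55) from D5 to D7 and 4.13 (SE 0.18, FDR 4.14e-116) from D7 to iPS. The further fall from D3 to D5 (−0.54, FDR 0.0348) had overlapping libraries, missed the threshold with edgeR (FDR 0.0738) and in a fit of only these groups (0.0655), and missed it without D3 WT replicate 2 (0.0547) or 3 (0.235) or D5 WT replicate 1 (0.136) or 2 (0.257).

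Tet2 climbed at every step up to iPS, from 617, 818 and 636 in WT MEFs to 1147, 1280.1 and 1380.1 at D3, 1766, 2231 and 2487 at D5, 3291, 2948 and 2756 at D7 and 5108, 5309.7 and 3660.3 in iPS clones. Neighbouring groups did not overlap up to D7. Over all genes, 36.2% were higher without overlap from MEF to D3, 21.1% from D3 to D5 and 21.6% from D5 to D7. Each Tet2 step up to iPS passed the test (0.88, 0.77, 0.47 and 0.65, FDR 1.46e-07, 2.07e-05, 0.0158 and 7.72e-05), and the D5 to D7 step missed the threshold without D5 WT replicate 1 (0.143) or D7 WT replicate 1 (0.0962). Tet3 stayed between 1579 and 2369 in all WT libraries from MEF to D7, after a small rise to D3 (0.43, FDR 0.00760), and fell to 472, 421 and 323 in iPS clones (−2.24, SE 0.16, FDR 4.73e-45) and 222, 215 and 290.1 in ESCs. Between the pluripotent cell types, Tet3 (−0.74, FDR 0.00195) and Dnmt3a (−0.58, FDR 0.0340) were lower in WT ESC than in WT iPS, where 1.09% of genes were higher and 2.11% lower. Tet3 missed the threshold there without ESC WT replicate 1 (0.0537), without iPS WT replicate 1 (0.0757) and in a fit of only these groups (0.0835). Dnmt3a missed it with edgeR (0.116), with the filter on low counts (0.0546) and without replicate 1 or 2 of either group (0.0820 to 0.207).

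Tdg, the glycosylase, went from 1289, 1331 and 1194 in WT MEFs to 4447, 4792 and 4411 at D3 (1.84, SE 0.08, FDR 4.58e-130), the lowest FDR of any member at that step. It then came down to 3351, 3045 and 3103 at D5 (−0.52, FDR 1.80e-11) and 2576, 2611 and 2574 at D7 (−0.29, FDR 0.000662). The Tdg row needs care, because 33.8% of the 75-base words of its exons, the read length used here, also lie in other genes, among them the processed pseudogenes Tdg-ps, Gm9855 and Gm5597. Tdg-ps was counted at 47.0% to 50.6% and Gm5597 at 27.1% to 29.2% of the Tdg level in every group, and reads from the shared stretches cannot be assigned to the gene or its copies. Exons of Tdg also overlap those of Glt8d2 on the opposite strand over 6.83% of their length. Of the other members, Uhrf1 shares 9.05% of its words with the pseudogene Gm5648, Dnmt3b shares 6.17% with Dnmt3c, and the rest share under 1%.

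Counting the WT steps together, 5 members were higher and 2 lower at D3 than in MEF (all genes, 33.8% higher and 37.1% lower). From D3 to D5 1 was higher and 2 were lower (12.4% and 12.7% of all genes). From D5 to D7 5 were higher and 2 lower (13.5% and 10.7%), and from D7 to iPS 6 were higher and 1 lower (35.8% and 37.7%). Uhrf1 was also lower at D5 than at D3 without D5 WT replicate 1 (−0.35, FDR 0.0346), and Tet2 lower in ESC than in iPS without iPS WT replicate 3 (−0.52, FDR 0.02). Tdg was higher in iPS than at D7 without iPS WT replicate 1 (0.22, FDR 0.00421) and with edgeR (0.18, FDR 0.0225) or TMM size factors (0.18, FDR 0.0167).

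**Figure D1:**
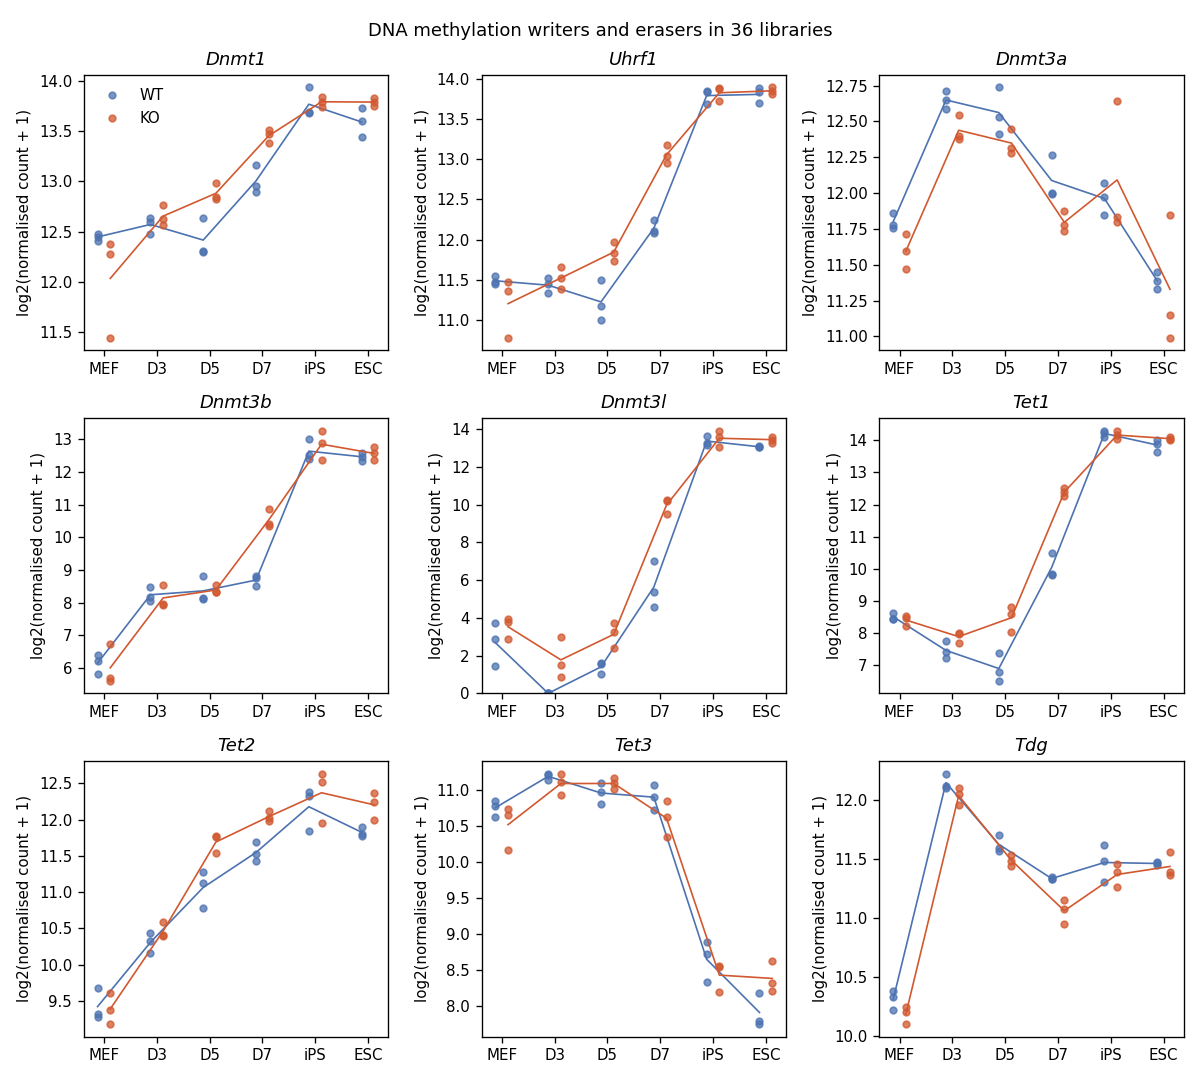
Level of each of the 9 members in all 36 libraries, as log2(normalised count + 1), by stage along the x axis, with WT points in blue, KO points in orange and lines joining the group means of 3 libraries. KO points lie above WT points at D5 and D7 for Tet1, Tet2, Uhrf1 and Dnmt1 and at D7 for Dnmt3b and Dnmt3l, and the genotypes overlap in iPS for all 9.

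Against this course, the genotypes were contrasted stage by stage to ask when loss of Zfp266 changed the members. In MEFs no member passed the test, where 0.0285% of all genes were higher and 0.0143% lower in KO. Dnmt1 was at 5334, 4961 and 2789 in KO MEFs against 5442 to 5713 in WT (−0.36, SE 0.14, FDR 0.513), and the low value belonged to KO replicate 3, whose fibroblast marker sum of 564604 was also above that of the other MEF libraries. Dnmt1 passed the test as lower when KO replicate 1 was left out (FDR 0.0333), a fit in which 0.671% of all genes were higher and 0.732% lower. At an unadjusted p under 0.05, Dnmt1 and Uhrf1 were lower in KO MEFs, and edgeR called no member. How many of all genes pass at that unadjusted level was not counted, so no difference is read from it.

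At D3 no member passed the test either, where 0.374% of all genes were higher and 0.119% lower in KO. Tet1 stood at 249, 208 and 258 in KO against 149, 170.0 and 215 in WT (0.42, SE 0.19, FDR 0.659), so the groups overlapped. Dnmt3l had 1, 2 and 7 reads in KO and none in WT (FDR 0.195), and without KO replicate 3 only 3 reads remained in KO, which is the floor of a group, so no fold is given. Dnmt3a was called in fits of only the D3 libraries. It had 5389, 5321 and 5964 counts in KO and 6147, 6423 and 6717 in WT, with no overlap (−0.21, SE 0.17, FDR 1.0). With the replicate number as a block in a fit of only the 6 D3 libraries, it was lower in KO (−0.21, FDR 0.000447), as it was without the block in those libraries (FDR 0.0411), whereas the block in the fit of all libraries gave no call. Of 12854 genes tested in the blocked fit of the D3 libraries, 214 were higher and 342 lower. Without the block these were 144 and 164 of 13260. At an unadjusted p under 0.05, Dnmt3l and Tet1 were higher, and edgeR called no member at D3. The share of all genes at that unadjusted level was not counted, so no difference is read from it. Over all genes at D3, 6.77% were higher and 7.53% lower in KO without overlap between the libraries of the genotypes.

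At D5 4 members were higher in KO and none lower, where 4.72% of all genes were higher and 2.43% lower. These 4 were the maintenance pair and 2 of the 3 TET genes. Tet1 reached 264, 446 and 386 in KO against 109.7, 90.8 and 168 in WT (1.57, SE 0.20, FDR 1.12e-12), with every KO library above every WT library. KO cells thus overlapped their own MEF libraries in Tet1 (358, 368 and 297), whereas WT cells had the lowest mean of their course. Tet2 was at 2980.4, 3501 and 3459.7 in KO against 1766, 2231 and 2487 in WT (0.62, SE 0.16, FDR 0.00321). Uhrf1 was at 3658, 3997 and 3397 in KO against 2902, 2312 and 2048 in WT (0.61, SE 0.12, FDR 9.07e-05), and Dnmt1 at 7336, 8085 and 7247 against 6358, 5051 and 5084 (0.46, SE 0.14, FDR 0.0229). In all 4 genes the libraries of the genotypes did not overlap, where 14.1% of all genes were higher and 14.4% lower in KO without overlap. The Dnmt1 call was the least firm. It missed the threshold with edgeR (FDR 0.0510), without D5 WT replicate 2 (0.133) or 3 (0.147), and without D5 KO replicate 1 (0.0519) or 2 (0.152). Tet2 missed it without D5 WT replicate 1 (0.0592).

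The de novo enzymes did not differ by the test at D5. Dnmt3b was at 368, 317 and 319.8 in KO and 451, 281 and 278 in WT (−0.01, SE 0.25, FDR 0.995). Dnmt3l had 9, 4 and 16 reads in KO and 2, 1 and 2 in WT, with no overlap (2.34, SE 0.83, FDR 0.0628). Dnmt3a had 5098, 4974 and 5596 counts in KO against 5925, 5459.9 and 6831 in WT (−0.22, SE 0.17, FDR 0.560), and in the blocked fit of the 6 D5 libraries it was lower in KO (−0.20, FDR 0.00310). That fit called 1266 genes higher and 1034 lower of 14545 tested. Tet3 (0.13, FDR 0.740) and Tdg (−0.14, FDR 0.296) did not pass.

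At D7 the KO cells had 6 members higher and 1 lower, where 13.3% of all genes were higher and 16.1% lower. Tet1 differed with the lowest FDR of the members, at 5901, 5330.1 and 4923 in KO against 909.8, 1445 and 895 in WT (2.31, SE 0.18, FDR 7.00e-35). The KO level lay about midway, on a log scale, between the WT D7 and the WT iPS level. Dnmt3l differed by the largest fold, at 1201, 1186 and 713 in KO against 39.6, 126 and 22.6 in WT (4.04, SE 0.46, FDR 2.48e-16), and by 5.05 without D7 WT replicate 2, the WT library with the most Dnmt3l. Dnmt3b was at 1289, 1865 and 1343 in KO against 364, 451 and 427 in WT (1.86, SE 0.24, FDR 1.15e-12). For these 3 genes every KO library lay far above every WT library.

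Uhrf1 followed at 8375, 9242 and 7922 in KO against 4830.1, 4417 and 4323 in WT (0.91, SE 0.12, FDR 1.06e-11). Dnmt1 was at 11364.5, 11644 and 10665 against 9183, 7607 and 7957 (0.44, SE 0.14, FDR 0.00839), and Tet2 at 4169, 4028 and 4445 against 3291, 2948 and 2756 (0.49, SE 0.16, FDR 0.00895). None of these genes had overlapping libraries, where 20.5% of all genes were higher and 26.2% lower in KO at D7 without overlap. Without D7 WT replicate 2 the FDR of Dnmt1 was 0.0550, and without D7 WT replicate 3 that of Tet2 was 0.0614. The other 5 calls at D7, and those of Uhrf1 and Tet1 at D5, were kept under all 12 alternatives. Tdg was the member called lower, at 2279, 1985 and 2168 in KO against 2576, 2611 and 2574 in WT (−0.27, SE 0.07, FDR 0.00139). Its copies Tdg-ps and Gm5597 had KO over WT ratios of 0.816 and 0.830 beside 0.829 for Tdg.

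Dnmt3a and Tet3, the members whose ESC level was below their fibroblast level, were also lower on average in D7 KO cells but did not pass the test. Dnmt3a was at 3409, 3509 and 3760.0 in KO against 4084, 4103 and 4922 in WT (−0.30, SE 0.17, FDR 0.200), without overlap. Tet3 was at 1844, 1297 and 1575 against 2141, 1691 and 1911 (−0.28, SE 0.15, FDR 0.160), with overlap. In the blocked fit of the 6 D7 libraries both were lower in KO (Dnmt3a −0.25, FDR 0.000217, and Tet3 −0.25, FDR 0.00349), and without the block in those libraries Dnmt3a had an FDR of 0.00635. The blocked fit called 3218 genes higher and 3185 lower of 18403 tested. Without the block these were 3343 and 3196 of 19632.

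In iPS clones no member passed the test, where 9.72% of all genes were higher and 6.63% lower in KO, and the libraries of all 9 overlapped. Their log2 differences lay between −0.23 (Tet3) and 0.23 (Dnmt3b), with FDRs from 0.357 to 0.967. The widest spread was in Dnmt3a, at 6401, 3555 and 3655 in KO against 4016, 4296 and 3681 in WT, where the high value belonged to KO replicate 1, the clone with the extraembryonic markers. Its sum of primed or formative markers was also high, at 3471 against 1618 and 1685 in the other KO clones and 1090 to 1757 in WT. No member passed when that clone was left out, nor with any other library left out. At an unadjusted p under 0.05 none was called in iPS, and edgeR called none. Over all genes in iPS, 11.2% were higher and 8.42% lower in KO without overlap.

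In ESC 1 member was called, where 5.82% of all genes were higher and 4.29% lower in KO. Tet3 was at 318, 395 and 294 in KO clones against 222, 215 and 290.1 in the parental line (0.47, SE 0.17, FDR 0.0482). It missed the threshold with edgeR (0.0925), with the filter on low counts (0.0600), without ESC WT replicate 1 (0.216) or 2 (0.215), and without ESC KO replicate 1 (0.0671) or 2 (0.307). Tet2 was at 5286, 4851 and 4081 against 3507, 3577 and 3803, with no overlap (0.38, SE 0.16, FDR 0.101). Dnmt3l was at 11049.5, 12401 and 9960.0 against 8419.8, 8449 and 8775, also with no overlap (0.38, SE 0.45, FDR 0.664). In a fit of only the 6 ESC libraries both were higher in KO clones (Dnmt3l 0.37, FDR 9.84e-05, and Tet2 0.37, FDR 0.000729). That fit called 1382 genes higher and 1079 lower of 15670 tested. Over all genes in ESC, 16.0% were higher and 13.5% lower in KO without overlap.

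**Figure D2:**
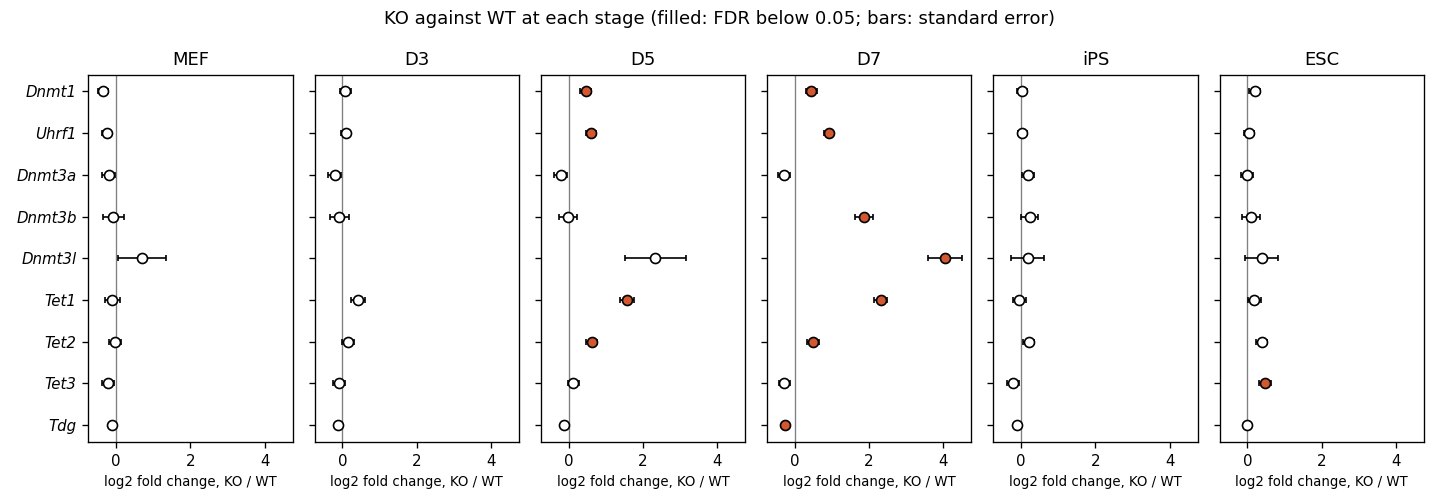
Difference between KO and WT as log2 fold change ± SE from DESeq2 for each member at the 6 stages, filled where FDR is under 0.05, with 3 libraries per group. Dnmt3l at D3 is left out because WT had no read. The values lie between −0.36 and 0.70 in MEF, D3 and iPS, and at D7 they reach 4.04 for Dnmt3l and 2.31 for Tet1.

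The change of the KO effect from 1 stage to the next was tested with an interaction term, in which neighbouring comparisons share the libraries of the stage between them. From MEF to D3 no member had a changed effect (0.112% of all genes did, in either direction), and from iPS to ESC none did (1.47%). At an unadjusted p under 0.05 these were 2 members (Dnmt1 and Dnmt3l) and 1 member (Tet3), and edgeR called none in either. The share of all genes at that unadjusted level was not counted. From D3 to D5 the effect on Tet1 grew by 1.15 (SE 0.28, FDR 0.0482, where 0.0640% of genes passed), a call kept under 6 of 17 alternatives. It was lost with edgeR (0.339), TMM size factors (0.0513) and the filter on low counts (0.0662), and without D3 WT replicate 2 (0.0880) or 3 (0.227), D3 KO replicate 2 (0.183) or 3 (0.0986), D5 WT replicate 1 (0.0979) or 2 (0.235), or D5 KO replicate 2 (0.632) or 3 (0.0940). From D5 to D7 the effect on Dnmt3b grew by 1.86 (SE 0.34, FDR 1.79e-05, where 5.84% passed), a call kept under all 17. The effect on Tet1 was 0.74 larger at D7 than at D5 and missed the threshold (SE 0.27, FDR 0.0763), but passed it without D7 WT replicate 2 (0.00271), D5 WT replicate 2 (0.0309) or D5 KO replicate 2 (0.0266). For Dnmt3l the effect was 1.70 larger at D7 (SE 0.95, FDR 0.335), and 2.69 larger without D7 WT replicate 2 (FDR 0.0194).

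From D7 to iPS the effect shrank for 4 members, where 21.9% of genes passed in either direction. The change was −3.87 for Dnmt3l (SE 0.64, FDR 1.11e-07), −2.36 for Tet1 (SE 0.25, FDR 8.47e-18), −1.63 for Dnmt3b (SE 0.34, FDR 3.81e-05) and −0.88 for Uhrf1 (SE 0.17, FDR 1.44e-05). All 4 calls were kept under 17 of 17 alternatives, and that of Dnmt3l was −4.88 without D7 WT replicate 2. For Dnmt1 (−0.42, FDR 0.116) and Tet2 (−0.29, FDR 0.395), the other members called higher at D7, the change did not pass, although Dnmt1 passed in a fit of only these groups (−0.44, FDR 0.0132). Dnmt3a passed without iPS KO replicate 2 (0.63, FDR 0.0456), and between iPS and ESC the effect on Tet3 passed without ESC WT replicate 3 (0.85, FDR 0.0373) or iPS WT replicate 3 (0.83, FDR 0.0190).

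How far the cells of D7 had gone was also described on the log2 distance from the WT MEF mean (0%) to the WT ESC mean (100%). Uhrf1 was at 28.2% ± 3.66 (SD, n = 3) in WT and 67.6% ± 4.86 in KO. Tet1 was at 28.7% ± 7.34 in WT and 72.6% ± 2.46 in KO. Dnmt3l was at 28.4% ± 11.9 and 70.3% ± 4.14, and Dnmt3b at 40.3% ± 2.54 and 69.4% ± 4.62. So in KO these 4 genes lay between 67.6% and 72.6% of their way, from levels that differ widely. Dnmt1 went from 48.8% ± 12.4 in WT to 88.0% ± 5.72 in KO. Tet2 had passed most of its distance in both genotypes (88.4% ± 5.37 and 109% ± 3.0). Tet3, whose path leads down, had not left its MEF level (−5.17% ± 6.01 and 5.12% ± 8.94). Dnmt3a, whose WT ESC mean is below its WT MEF mean by a small distance, lay at −69.8% ± 37.3 in WT and 0.914% ± 17.6 in KO, that is above its MEF level in WT and at about that level in KO. Tdg lay at 88.9% ± 0.993 in WT and 65.3% ± 8.74 in KO, on a path that overshot at D3, so that a lower value is not a lower rank in the course.

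Ratios within a library do not depend on its size factor, apart from the pseudocount of 1. The log2 ratio of Dnmt3b over Dnmt3a at D7 was −3.48, −3.18 and −3.52 in WT and −1.40, −0.91 and −1.49 in KO. The KO ratio was thus 2.13 higher at D7, against 0.11 at D3 and 0.24 at D5. Over D3, D5 and D7 together the ratio was 0.83 higher in KO (two-sided exact permutation test within days, p = 0.0185 over 8000 permutations). A single day has 3 libraries against 3 and cannot give a p below 0.1. Tests over the days take libraries of different days as independent, which the labels do not state.

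The log2 ratio of Tet1 over Tet2 at D7 was −1.85, −1.03 and −1.62 in WT and 0.50, 0.40 and 0.15 in KO, so in KO the order of these genes had turned. The difference was 0.27 at D3, 0.95 at D5 and 1.85 at D7, and 1.03 over the 3 days (two-sided exact permutation test within days, p = 0.0005, where the smallest possible p is 0.00025). In MEF (−0.07), iPS (−0.24) and ESC (−0.18) the same ratio was lower in KO on average, where an exact permutation test cannot give a p below 0.1.

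**Figure D3:**
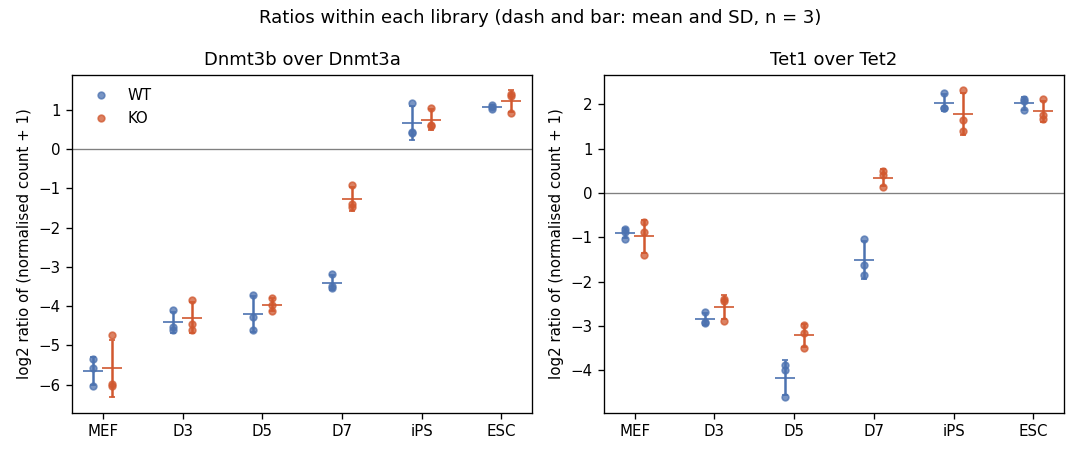
Log2 ratio of Dnmt3b over Dnmt3a and of Tet1 over Tet2 in each library by stage, WT in blue and KO in orange, with a dash and bar for the mean ± SD (n = 3). Each ratio separates most at D7, where KO minus WT was 2.13 and 1.85.

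Per kilobase of exon, levels of different genes can be set beside each other roughly. The length is that of all annotated exons of a gene merged (16.642 kb for Dnmt3a, 5.106 kb for Dnmt3b and 7.377 kb for Dnmt1). Transcripts present in these cells may be shorter, which would change the shares. Of the summed TET level of WT MEFs, Tet1 made up 14.1%, Tet2 24.3% and Tet3 61.6%. At D5 the WT shares were 3.07%, 50.05% and 46.9%, and at D7 they were 19.3%, 49.0% and 31.7%. At D7 the KO shares were 50.3% ± 2.78, 36.2% ± 2.77 and 13.5% ± 1.63 (SD, n = 3), so that Tet1 was the main TET transcript of KO but not of WT cells. In iPS clones Tet1 made up 80.4% in WT and 77.7% in KO. The summed TET level per kilobase at D7 was 362 ± 24.0 in WT and 692 ± 41.4 in KO, against 1533 ± 147 in WT iPS clones. Among the 3 methyltransferases, Dnmt1 kept about the same share at D7, 76.4% in WT and 75.03% in KO. Dnmt3a took 18.02% of the D7 level in WT and 10.6% in KO, and Dnmt3b 5.59% and 14.4%. In WT iPS clones the shares were 55.9% for Dnmt1, 7.10% for Dnmt3a and 37.0% for Dnmt3b.

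The genes that act with the members were described from lists by role, with counts over the whole list, to be read beside the shares of all genes higher and lower in KO (4.72% and 2.43% at D5, 13.3% and 16.1% at D7, 5.82% and 4.29% in ESC). In MEF and at D3 no gene of these 6 lists passed the test. Of 10 partners and inhibitors of the writers, 6 were higher in KO at D5 (median log2 difference 0.35, all genes −0.01) and 8 were higher and 1 lower at D7 (0.55, all genes −0.04). Usp7, a deubiquitinase that binds DNMT1 and UHRF1, rose from 4519.8 ± 54.5 to 7131 ± 493 at D7 (0.66, FDR 1.26e-35). Hells and Cdca7, which form a remodelling complex needed for methylation of packed chromatin, were higher by 0.62 (FDR 1.85e-11) and 0.48 (FDR 3.95e-09) at D7. At D5 these genes were higher by 0.29 (Usp7, FDR 2.81e-06), 0.42 (Hells, FDR 7.52e-05) and 0.36 (Cdca7, FDR 0.000271).

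DNA replication genes, whose activity goes with that of DNMT1 and UHRF1 in S phase, moved in the same comparisons. Of 17 such genes 9 were higher at D5 (median 0.36) and 14 at D7 (median 0.47), with none lower. Mcm2, a subunit of the replicative helicase, was higher by 0.57 at D5 (FDR 5.77e-06) and 0.74 at D7 (FDR 4.80e-11), Mcm4 by 0.44 and 0.56 (FDR 7.04e-06 and 2.10e-10), and Mcm3 by 0.73 at D7 (FDR 4.96e-13). The helicase loader Cdc6 was higher by 0.73 at D5 (FDR 2.06e-06). Beside the differences of Dnmt1 (0.44) and Uhrf1 (0.91) at D7, the part of a changed cell cycle was not tested.

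Of 10 base excision repair genes 3 were higher at D5 (median 0.15) and 5 higher and 1 lower at D7 (0.29). The glycosylases Ung (0.33, FDR 0.000274) and Mbd4 (0.53, FDR 2.43e-05) and the strand break sensor Parp1 (0.38, FDR 5.38e-06) were higher at D7. At D5 Ung was higher by 0.45 (FDR 3.26e-06), Mbd4 by 0.36 (FDR 0.0486) and Parp1 by 0.23 (FDR 0.0294). Of 9 TET partners and suppliers of their cofactor none passed at D5 (median 0.01), and 2 were higher and 1 lower at D7 (0.25). Cxxc5, a CXXC-domain protein, was at 271 ± 36.6 in WT and 581 ± 29.5 in KO (1.10, FDR 3.04e-07), and its relative Cxxc4 at 112 ± 18.7 and 63.8 ± 16.4 (−0.81, FDR 0.00517). Gadd45a, linked to DNA repair, was higher by 0.83 (FDR 0.00326).

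Of 7 readers of methylated CpG none passed at D5, and Zbtb38 (0.54, FDR 0.000688) and Zbtb4 (0.58, FDR 0.00859) were higher at D7. Among genes of methyl donor supply, Mthfd1 of the folate cycle was higher at D7 (0.35, FDR 0.000590), and methionine synthase, Mtr, was lower (−0.21, FDR 0.0229).

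In iPS clones, where no member differed, some genes of the lists did. Dppa3, which keeps UHRF1 from chromatin, was at 206, 389 and 969 in KO and 122, 54.3 and 157 in WT (2.23, FDR 0.00341). Uhrf2, a relative of Uhrf1, was higher (0.45, FDR 0.000591), and Qser1, which protects CpG-rich regions with TET1, was lower (−0.41, FDR 9.54e-05). S-adenosylmethionine synthetase Mat2a was lower (−0.41, FDR 7.32e-06), as was Ahcy (−0.30, FDR 0.00148), whereas mitochondrial Shmt2 was higher (0.52, FDR 0.000891). The list counts in iPS, beside shares over all genes of 9.72% higher and 6.63% lower, were 2 higher and 1 lower of 10 writer partners, 1 and 0 of 9 TET partners (Ogt, 0.33, FDR 0.0302), and 1 and 1 of 10 repair genes (Ung 0.21, FDR 0.0409, and Apex1 −0.34, FDR 0.000164). They were 1 and 2 of 7 readers (Zbtb4 1.13, FDR 0.000110, Zbtb33 −0.25, FDR 0.00803, and Mbd1 −0.23, FDR 0.0278), 1 and 2 of 9 methyl donor genes, and 2 and 4 of 17 replication genes. Of the last list, Ccne1 (−0.80, FDR 1.04e-06), Ccne2 (−0.57, FDR 0.00118) and Pcna (−0.34, FDR 3.76e-05) were lower.

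In ESC clones Usp7 (0.23, FDR 0.000257) and the H3K36 methyltransferase Nsd1 (0.42, FDR 0.000907) were the 2 of 10 writer partners that were higher. Idh1, which makes the cosubstrate of the TET enzymes in the cytosol, was lower (−0.54, FDR 0.00860), the 1 called of 9. Shmt2 was higher (0.76, FDR 5.13e-07) and Ahcy lower (−0.22, FDR 0.0433) of 9. Of 17 replication genes Pola1 was higher (0.46, FDR 2.94e-05) and 3 were lower, Pcna (−0.32, FDR 0.000181) and Ccne2 (−0.54, FDR 0.00411) among them. No repair gene or reader passed in ESC.

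Markers of other cell states moved with the members at D5 and D7. The pluripotency sum was 7143 to 7929 in WT and 10034 to 11517 in KO at D5 (8 of 10 genes higher), and 10684.5 to 14534 in WT and 30318 to 39280.2 in KO at D7 (9 of 10 higher, median 1.64). The fibroblast sum was 25142 to 37673 in WT and 8379.7 to 23246 in KO at D7 (4 of 9 genes lower, median −0.72), with no gene of either list without reads at D7. The sum of 4 primed or formative markers was 28.8 to 94.6 in WT and 324 to 528 in KO at D7 (3 of 4 higher). The members' own median log2 difference was 0.46 at D5 and 0.49 at D7. The part of the share of cells on the way to pluripotency in the members' differences was not tested. In iPS and ESC the pluripotency sums of the genotypes lay between 118298 and 153318, with 1 gene called lower in iPS and none in ESC.

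**Figure D4:**
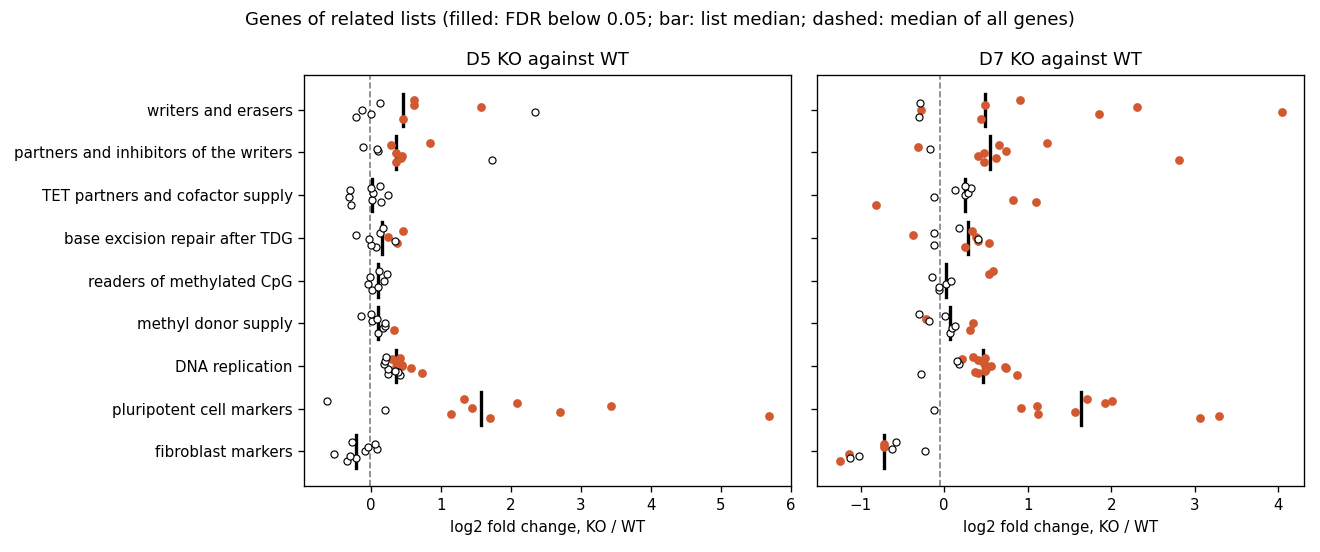
Log2 fold change of KO against WT at D5 and D7 for each gene of the related lists and of the pluripotency and fibroblast markers, with a bar at the median of the list and a dashed line at the median of all genes (−0.01 and −0.04). Partners of the writers and replication genes lie mostly above the line at both days, at medians of 0.55 and 0.47 at D7.

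Genes with the pattern most like each member were taken by Pearson's r over the 12 group means, among 14636 genes with a mean of at least 50, as a description without a test. For Dnmt3b they were Dnmt3c, its rodent duplicate (r = 0.9969), and Mkrn1 (0.9966). For Uhrf1 they were Gm5648 (0.9993) and Gm13232 (0.9967), and for Tdg they were Tdg-ps (0.9992) and Gm5597 (0.9991). Of these, Dnmt3c, Gm5648, Tdg-ps and Gm5597 are copies that share sequence with the member. Gm5648 was counted at 8.55% to 9.50% of the Uhrf1 level, and Dnmt3c at 3.62% to 5.997% of the Dnmt3b level. Dnmt1 was closest to Cep135 (0.9908) and Eri2 (0.9892), Dnmt3l to Ccnb2 (0.9951) and Phf11d (0.9950), Tet1 to Arl6ip6 (0.9945) and Dscc1 (0.9942), Tet2 to Atmin (0.9890) and Kat7 (0.9858), and Tet3 to Atp2b1 (0.9943) and Megf9 (0.9940). Dnmt3a had the least close neighbours, Csnk2a2 (0.9304) and Tmem245 (0.9299). Between members, the lowest r over the 12 group means was that of Dnmt3l and Tet3 (−0.915), followed by Tet1 and Tet3 (−0.901) and Uhrf1 and Tet3 (−0.901). These means share libraries and size factors.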

How the data were processed

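RNA-seq libraries (stranded mRNA kit, 75-base single-end reads) had been trimmed with Cutadapt, aligned to GRCm38.p6 with STAR and counted per gene with Rsubread by the authors; versions, annotation release and the strand setting of the counting are not given in the sources used here. The authors deposited raw read counts per gene and a normalised signal, the counts divided by DESeq2 size factors. Size factors recomputed here gave the deposited values to a relative difference of 4.98e-15. A log matrix corrected by the authors for batches that the labels do not give was not used. Of the deposited comparison files, which hold fold changes and p-values, only the gene names were used.

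Counts of all 21442 genes and 36 libraries were fitted with DESeq2 1.42.0 (R 4.3.3) with a factor of 12 groups and the Wald test; FDR is the Benjamini-Hochberg adjusted p over all genes tested, with a threshold of 0.05, and log2 fold changes were not shrunken. Labels give 3 replicates per group but mostly not whether they were separate cultures, and p-values then measure the spread between these samples. No 2 replicates of a group were as close as sampling noise. Alternatives were edgeR 4.0.16 (quasi-likelihood), TMM size factors, a filter of at least 10 reads in at least 3 libraries, fits of only the groups compared, the replicate number as a block, a pseudocount of 10 for ratios, and each library left out in turn. Ratios used a pseudocount of 1 and exact permutation tests. Scripts were tested on simulated data.

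Replicate numbers come from the sample titles. Deviations of same-numbered KO and WT libraries from their group means correlated at 0.101 to 0.456 at D3 and 0.172 to 0.392 at D7. At D7 each was above those of differently numbered libraries (at most −0.00933), so the numbers pair the D7 samples. At D3, WT replicate 2 correlated more with KO replicate 3 (0.126) than with KO replicate 2 (0.101), so the pairing there is less clear. At D5 these correlations were 0.0897 to 0.268, each above those of differently numbered libraries (at most 0.016). In MEF, iPS and ESC the same-numbered correlations were not above 0.1 throughout. A block fitted on only the 6 libraries of D3, D5 or D7 was added after this check, chosen after seeing the data.

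The members and lists were chosen with earlier results of these data known. The members were named in every comparison, and from each list up to 3 genes with the lowest FDR past the threshold per KO and WT comparison. Promoter sequences were from RefSeq (all 9 members matched), and exon lengths from the GRCm38 gene annotation. A gene of the methyl donor list is not reported here.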

Additional observations from a re-analysis of the deposited data

Results flagged for a closer look

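For 4 members the difference between KO and WT changed, in 6 cases in all, from 1 stage to the next by a test of the change itself (interaction term, DESeq2, FDR under 0.05). Groups of 3 libraries were not tested for outlying samples. For Tet1 the KO effect grew by 1.15 on the log2 scale from D3 to D5. For Dnmt3b it grew by 1.86 from D5 to D7. From D7 to iPS it changed by −1.63 for Dnmt3b, by −3.87 for Dnmt3l, by −0.88 for Uhrf1 and by −2.36 for Tet1. The D7 cells were a sorted population in doxycycline and vitamin C and the iPS cells were selected clones without doxycycline, so stage, selection and medium cannot be told apart in these changes.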

How the results depend on the processing

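Over all comparisons, the values of the 9 members under the alternatives kept their direction, where called, and their side of the threshold in 1897 cases, lost a call in 51 and gained one in 24, and none turned in direction. Signs of values never called were not followed. The count of members called moved by more than 1.5 times as follows. At D3 it was 0, and 1 in a fit of only these groups, with or without the replicate block. In ESC KO against WT it was 1, and 0 with edgeR, 0 with the filter on low counts and 3 in a fit of only these groups. In WT ESC against WT iPS it was 2, and 1 with edgeR, with the filter and in a fit of only these groups. The change of the KO effect from D3 to D5 went from 1 to 0 with edgeR, TMM size factors and the filter. It moved by 1 with edgeR at D5 (4 to 3), in WT D5 against D3 (3 to 2), in WT iPS against D7 (7 to 8, also with TMM) and in WT ESC against MEF (9 to 8, also with TMM). In fits of only these groups it was 8 for 7 in D7 and in WT D3 against MEF, and 5 for 4 in the change of the KO effect from D7 to iPS. Among all genes these fits called 3343 higher and 3196 lower of 19632 at D7, and 7458 and 7438 of 21004 in WT D3 against MEF. For the change of the KO effect they called 1595 and 1690 of 19740. The cause of the moved member counts was not tested. With the replicate number as a block in the 12-group fit, no call of any member changed. That block is shared by all groups and so cannot show the effect of a pairing within 1 day. The block in the 6 libraries of D3, D5 or D7 gave 5 calls for 4 at D5 and 9 for 7 at D7, adding Dnmt3a at both and Tet3 at D7. Among all genes these blocked fits called 1266 higher and 1034 lower of 14545 tested at D5. At D7 they called 3218 higher and 3185 lower of 18403.

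With 1 library left out at a time, the count of members called in KO against WT ran from 0 to 1 in MEF, 0 to 0 at D3, 3 to 4 at D5, 6 to 7 at D7, 0 to 0 in iPS and 0 to 1 in ESC. In WT it ran from 7 to 7 (D3 against MEF), 2 to 3 (D5 against D3), 5 to 7 (D7 against D5), 7 to 8 (iPS against D7), 0 to 3 (ESC against iPS) and 8 to 9 (ESC against MEF). For the change of the KO effect it ran from 0 to 0 (MEF to D3), 0 to 1 (D3 to D5), 1 to 3 (D5 to D7), 4 to 5 (D7 to iPS) and 0 to 1 (iPS to ESC). The difference in the Dnmt3b over Dnmt3a ratio ran from 0.753 to 0.910 (exact permutation p from 0.00575 to 0.036) and that of Tet1 over Tet2 from 0.953 to 1.11 (p from 0.00025 to 0.00125). With the replicate block (sign flips of same-numbered pairs) these p were 0.0156 and 0.00391, the latter being the smallest that test can give. Both kinds of test take libraries of different days as independent. Same-numbered libraries correlated between days at 0.116 to 0.259 (WT D5 and D7), 0.172 to 0.233 (KO D3 and D5) and −0.111 to 0.237 (WT D3 and D7), so these p may be too low.

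Dnmt3l had too few reads before D7 (0 to 16 per library) for a firm fold change, and the 33.8% of Tdg words shared with other genes leave its level uncertain.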
